A study of Petromyzon marinus with 2 samples.

Results

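SLC6A9 (MSTRG.7418) and SLC6A5 (MSTRG.11883) are the 2 glycine transporter genes of the sea lamprey (Petromyzon marinus) examined here, chosen by name and identifier from the 24979 genes listed with the single-cell counts. Whole retinas of adult lampreys were dissociated with papain and profiled cell by cell in droplets, as 2 RNA-seq libraries, replicates 1 and 2, with no treatment, strain or time point to compare. The labels add a sorting step by flow cytometry without naming its gate. After filtering, 12903 and 15936 cells remained, and the comparisons below are between groups of cells within these libraries. The libraries are described as biological replicates in the methods, but which animals gave which library is not given in the sources used here. The p-values below rest on how much differences between groups or categories of cells vary between these 2 libraries. The library is held as a block, and the spread is estimated over all groups or categories of a fit. They do not measure the spread between animals.

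Glycine transporters carry glycine from the extracellular space into cells together with sodium and chloride. In jawed vertebrates SLC6A9 encodes GLYT1, which is found on glia and on glycinergic amacrine cells of the retina and clears glycine around receptors, and SLC6A5 encodes GLYT2, which refills the terminals of glycinergic neurons in the brainstem and spinal cord. SLC32A1 encodes the vesicular transporter that loads both GABA and glycine into synaptic vesicles, GAD1 the decarboxylase that makes GABA, CHAT the enzyme that makes acetylcholine, and SLC5A7 the carrier that supplies choline for it. These roles are known from other species.

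The libraries held 87882951 and 117426390 UMIs (unique molecular identifiers, each counting 1 captured transcript), with a median of 4929 and 5561.5 per filtered cell. Because a deeper cell shows more genes, shares of cells below were counted after thinning each cell to 2000 random UMIs, unless stated otherwise. This kept 8895 and 13204 cells and left out 4008 and 2732 shallower ones. A gene counts as detected in a cell with at least 1 UMI. Levels are CPM, the UMIs of a gene per 1000000 UMIs of all genes in a group of cells. The libraries shared 83 cell barcodes, and Scrublet, a caller of droplets with 2 cells, marked 1.93% and 4.20% of cells, which were kept.

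SLC6A9 was detected in 16.3% and 13.4% of thinned cells (14.8% ± 2.07, SD, n = 2), and SLC6A5 in 12.9% and 8.60% (10.8% ± 3.07). Without thinning, SLC6A9 was present in 2876 cells of replicate 1 (22.3%) and 3506 cells of replicate 2 (22%), and SLC6A5 in 17.6% and 13.6%. Cells with SLC6A9 held a median of 2 UMIs of it in each library and at most 46 and 63, and cells with SLC6A5 a median of 2 and at most 21 and 19. The SLC6A5 level was higher in replicate 1 (78.1 CPM) than in replicate 2 (48.3 CPM), whereas SLC6A9 was at 100.1 and 89.2 CPM. Both transporters were detected in the same cell in 386 of 8895 cells of replicate 1 (4.34%, 95% Clopper-Pearson interval 3.93 to 4.78) and in 392 of 13204 cells of replicate 2 (2.97%, 2.69 to 3.27). Such intervals cover counting error only. Cells with SLC6A9 alone made up 11.96% and 10.4%, and cells with SLC6A5 alone 8.60% and 5.63%.

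Over the whole retina the 2 transporters were found together more often than their separate shares would give. If detection of each gene were independent of the other, 2.11% and 1.15% of cells would hold both. The log2 odds ratio of co-detection was 1.66 in replicate 1 and 2.04 in replicate 2. SLC6A5 was detected in 26.6% and 22.2% of the cells with SLC6A9 and in 10.3% and 6.50% of the cells without it. SLC6A9 was detected in 33.5% and 34.5% of the cells with SLC6A5. Most cells with either transporter therefore showed only 1 of them at this depth.

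To ask which cells held the transporters, clusters of all cells were placed in groups named by a single gene. A cluster joined the RCVRN (recoverin, a photoreceptor calcium sensor), CHTF18 or HES1 (a transcription factor of glia) group where at least 10% of its cells had a UMI of that gene, and the BEGAIN, SLC5A7, SLC32A1 or GAD1 group at 70%. These limits were applied without thinning, so a shallow cluster could miss them. Clusters in no group held 7018 cells, with a median of 1041 UMIs. Of 8 groups planned, 7 were found, since no cluster reached 10% for POU4F2, a transcription factor of ganglion cells. SLC6A9, SLC6A5 and the context genes were left out of the genes used for clustering, so their shares do not follow from it, except for SLC32A1, SLC5A7 and GAD1 in the groups they name. The groups are called by gene and not by cell type, since several marker genes of retinal cell types had no named gene here.

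Both transporters were highest in the SLC32A1 group, which held 5869 cells. SLC6A9 stood at 403 and 408 CPM there (406 ± 3.55) and was detected in 44.1% ± 0.713 of cells. SLC6A5 stood at 283 and 224 CPM (253 ± 42.1) and was detected in 30.2% ± 1.53 of cells. Next came the SLC5A7 group of 1459 cells, in which CHAT was detected in 99.5% of cells. SLC6A9 reached 85.2 and 75.02 CPM in that group. SLC6A5 reached 76.6 CPM in replicate 1 and 32.3 CPM in replicate 2, so its level there differed between the libraries by more than its distance from several other groups. The order then separated the genes. SLC6A9 followed in the HES1 group at 36.4 and 48.8 CPM, above the 17.1 and 24.1 CPM of the GAD1 group in each library. SLC6A5 was at 7.35 and 6.62 CPM in the HES1 group, the lowest mean of the 7 groups, although the 6.02 CPM of the BEGAIN group in replicate 2 was lower. The GAD1, CHTF18 and BEGAIN groups held SLC6A9 at between 11.0 and 24.1 CPM and SLC6A5 at between 6.02 and 21.6 CPM, and these ranges overlap between neighbouring groups. The RCVRN group had only 62 cells deep enough to thin, and its levels rest on 5 and 1 UMIs of SLC6A9 (20.7 and 4.58 CPM) and 10 and 4 UMIs of SLC6A5 (41.5 and 18.3 CPM).

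**Figure D1:**
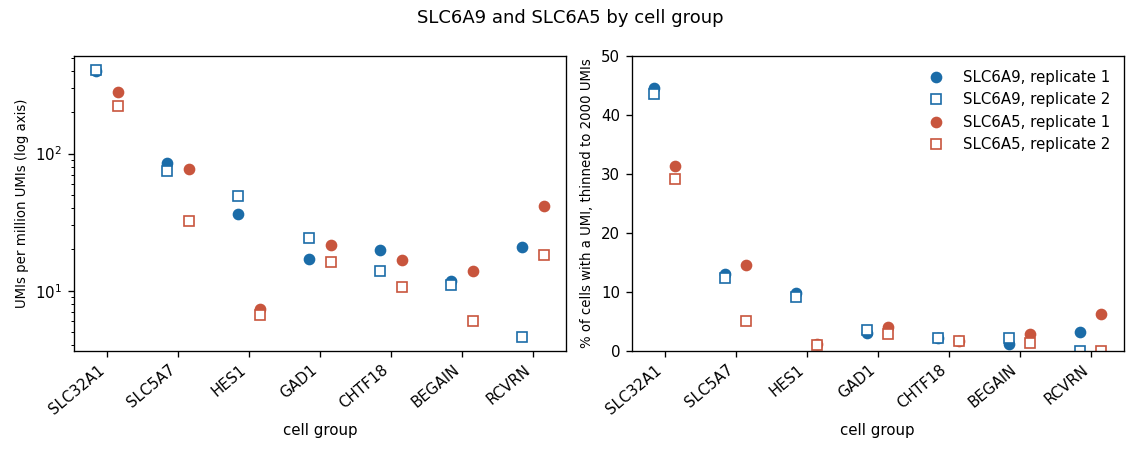
SLC6A9 (blue) and SLC6A5 (red) in the 7 cell groups, with replicate 1 as filled circles and replicate 2 as open squares. The left axis gives CPM on a log scale and the right axis the percent of cells with a UMI after thinning to 2000 UMIs. Both genes are highest in the SLC32A1 group, at 403 and 408 CPM for SLC6A9 and 283 and 224 CPM for SLC6A5, and the 2 replicates of SLC6A5 lie apart in the SLC5A7 group.

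Sums of UMIs in each library and group were compared with edgeR's quasi-likelihood test, each group against the mean fitted log2 level of the other 6, with Benjamini-Hochberg adjustment over 15036 genes. A call needed an adjusted p under 0.05 and a difference of 2-fold or more. In the SLC32A1 group SLC6A9 was 16.1-fold higher (log2 4.01, SE 0.13, adjusted p = 3.50e-10) and SLC6A5 13.8-fold higher (log2 3.79, SE 0.14, adjusted p = 6.61e-10), where 15.7% of all genes were called in either direction. In the SLC5A7 group, where 17.6% of genes were called, SLC6A9 was 2.80-fold higher (log2 1.48, adjusted p = 9.37e-06) and SLC6A5 2.46-fold higher (log2 1.299, adjusted p = 4.34e-05), although for SLC6A5 the difference was 1.59 in replicate 1 and 0.97 in replicate 2. The HES1 group called 31.6% of genes. It gave SLC6A5 as 3.70-fold lower (log2 −1.89, SE 0.24, adjusted p = 1.36e-05), whereas SLC6A9 had a log2 difference of 0.50 (adjusted p = 0.0324) and missed the 2-fold limit.

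Of the remaining groups, BEGAIN gave both transporters as lower, by log2 −1.95 for SLC6A9 and −1.74 for SLC6A5, with 22.2% of genes called. CHTF18 gave both as lower as well, by log2 −1.26 and −1.02, with 15.1% called. In the RCVRN group SLC6A9 was called lower (log2 −1.83, adjusted p = 0.0318) and SLC6A5 was not called (log2 0.09), with 11.8% called. In the GAD1 group neither passed the 2-fold limit (log2 −0.95 for SLC6A9 and −0.53 for SLC6A5), with 16.6% called. Direct contrasts between pairs of these groups placed the SLC32A1, SLC5A7 and GAD1 groups in order. The SLC32A1 group exceeded the SLC5A7 group by log2 2.17 for SLC6A9 and 2.14 for SLC6A5, with 16.4% of genes called. It exceeded the GAD1 group by 4.25 and 3.71, with 11.1% called. The SLC5A7 group exceeded the GAD1 group by 2.08 and 1.57, with 14.4% called. All 6 of these differences were called by edgeR, the largest adjusted p being 6.15e-05.

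Joint detection was concentrated in the SLC32A1 group. Of the 778 thinned cells with both transporters, 653 belonged to it, 320 of 386 in replicate 1 (82.9%) and 333 of 392 in replicate 2 (84.9%). The GAD1 group gave 37 of the others and the SLC5A7 group 28. Within the SLC32A1 group 12.9% and 11.3% of cells held both (12.1% ± 1.09), 31.7% and 32.3% held SLC6A9 alone (32.0% ± 0.374), 18.4% and 17.8% held SLC6A5 alone (18.1% ± 0.440), and 37.0% and 38.6% held neither. The SLC5A7 group had both in 17 of 624 cells (2.72%) and 11 of 759 cells (1.45%). Its cells with SLC6A5 alone made up 11.9% in replicate 1 and 3.56% in replicate 2.

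Exclusive detection of SLC6A9 was the pattern of the HES1 group. There 9.77% and 8.68% of cells held SLC6A9 alone, 1.15% and 0.536% held SLC6A5 alone, and both were found in 0 of 174 and 4 of 933 cells. With 3 counts as the limit, the 0 of 174 allows up to 1.72% of cells with a UMI of each gene at this depth. For comparison, SLC6A9 was detected in 2.10% of cells in the CHTF18 group and 1.58% in the BEGAIN group, and SLC6A5 in 1.60% and 2.03%. The part of free RNA in these low shares was not tested. The median depths before thinning were 4918 UMIs in the CHTF18 group, 6671 in the BEGAIN group and 12902 in the HES1 group. The share of SLC6A5 in the HES1 group (1.06% ± 0.131) was no higher than in those 2 groups, and that of SLC6A9 (9.44% ± 0.466) was higher. In the HES1 group Scrublet marked 11.8% and 19.8% of the cells with SLC6A9 alone and 8.39% and 15.2% of those with neither. The part of such droplets in this result was not tested.

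**Figure D2:**
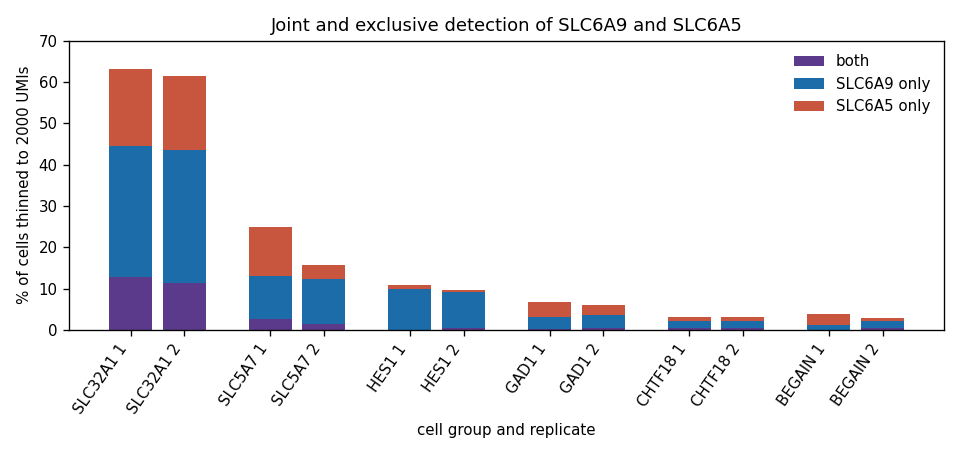
Share of cells with both transporters (purple), SLC6A9 only (blue) and SLC6A5 only (red) in 6 groups of cells, for replicates 1 and 2, each cell thinned to 2000 UMIs. The stacked bars reach 63.0% and 61.4% of cells in the SLC32A1 group, and in the HES1 group they consist almost wholly of cells with SLC6A9 only (9.77% and 8.68%).

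In the GAD1 group, the largest with 9953 cells, each transporter was rare. SLC6A9 was detected in 3.28% ± 0.415 of cells and SLC6A5 in 3.42% ± 0.763, not far above the shares just given for the CHTF18 and BEGAIN groups. Cluster 27 of the group had SLC6A9 in 15.5% and 15.6% of its cells. Over the whole GAD1 group both transporters occurred in 11 cells in replicate 1 and 26 in replicate 2. Of these cells Scrublet marked 27.3% and 26.9%, against 1.54% and 2.73% of the group's cells with neither transporter. Their median depth before thinning was 16246 and 10813.5 UMIs, against 9201.5 and 7793 UMIs. The part of such droplets in joint detection was not tested.

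The positive association over the whole retina did not hold within the SLC32A1 group taken as 1 population. There the log2 odds ratio of co-detection was −0.30 in replicate 1 and −0.39 in replicate 2 (−0.35 ± 0.07), and SLC6A5 was detected in 28.9% and 26.0% of cells with SLC6A9 against 33.3% and 31.6% of cells without it. Its sign turned when cells were compared only with cells of their own cluster. The odds ratio combined over the 16 clusters of the group (Mantel-Haenszel) was 0.11 and 0.24 on the log2 scale (0.17 ± 0.09). This within-cluster value was chosen after the data were seen.

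Clusters found within the SLC32A1 group differed in which transporter they held. A cluster was said to hold a gene where at least 10% of its thinned cells in each library had a UMI of it, among clusters with at least 10 such cells in each library. Of 75 clusters counted over all groups, 11 held both transporters, 14 held SLC6A9 only and 3 held SLC6A5 only. The SLC32A1 group had 10 clusters with both (3102 cells), 5 with SLC6A9 only (2529 cells) and 1 with SLC6A5 only (238 cells). None of its 16 clusters lacked both.

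In the clusters with both, SLC6A5 ranged widely. Cluster 14 was among the richest in both genes, with SLC6A9 in 63.9% and 60.3% of cells and SLC6A5 in 75.9% and 61.6%. Cluster 8 had SLC6A9 in 45.8% and 48.1% and SLC6A5 in 72.1% and 69.05%. Cluster 2 stood at the lower end for SLC6A5, at 23.0% and 22.1%, with SLC6A9 in 36.6% and 43.6%. Cluster 16, with 56 cells, was the least certain, since SLC6A5 was in 29.4% of its cells in replicate 1 and 10.3% in replicate 2, just past the limit. Its cells with GAD1 (88.2% and 76.9%) exceeded those of every other cluster of the group. Over the 10 clusters with both, the lowest shares of SLC32A1 were 29.4% in replicate 1 and 46.2% in replicate 2. The lowest shares of cells with both transporters were 7.39% and 0%. A cluster said to hold both therefore need not contain cells with both in each library at this depth.

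The 5 clusters with SLC6A9 only were not merely low in SLC6A5. Cluster 6 had SLC6A9 in 68.1% and 72.1% of its cells, at 791 and 861 CPM, and SLC6A5 in 1.06% and 1.86%, at 19.1 and 9.68 CPM. Cluster 4 had SLC6A9 in 59.8% and 62.9% and SLC6A5 in 2.30% and 2.50%. Across the 5 clusters SLC6A5 lay between 0.901% and 3.54%, beside 1.60% in the CHTF18 group and 2.03% in the BEGAIN group. Clusters 1 and 9 were also rich in CHAT, detected in 90.8% and 76.3% of the cells of cluster 1 and in 87.0% and 72.3% of those of cluster 9, while in clusters 4, 6 and 7 CHAT was at 4.26% to 11.1%. SLC5A7 was rare in the whole SLC32A1 group, at 1.62% of cells, beside 1.08% in the GAD1 group.

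Cluster 11 was the reverse. SLC6A5 was detected in 63.6% and 74.5% of its cells, at 614 and 703 CPM, and SLC6A9 in 1.52% and 1.91%, at 8.53 and 16.1 CPM. It also had the highest shares of SLC32A1 in the group, 80.3% and 88.5%. It was one of 3 clusters with SLC6A5 only. The other 2 lay in the GAD1 group. Cluster 17 there had SLC6A5 in 37.0% and 30.8% of cells beside SLC32A1 in 58.0% and 54.9% and GAD1 in 89.0% and 81.2%. Cluster 18 had SLC6A5 in 21.6% and 15.04%.

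**Figure D3:**
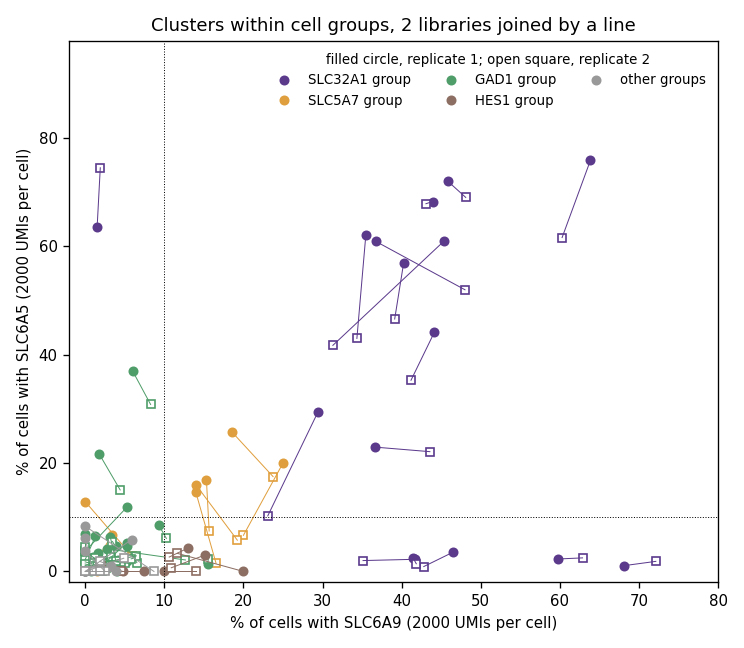
Percent of cells with SLC6A9 (horizontal) and SLC6A5 (vertical) in the 75 clusters, after thinning to 2000 UMIs per cell, with replicate 1 (filled) and replicate 2 (open) of a cluster joined by a line and dotted lines at the 10% limits. Clusters of the SLC32A1 group (purple) fall in 3 places: SLC6A9 without SLC6A5 along the lower edge, both genes in the upper middle, and a single cluster with SLC6A5 in 63.6% and 74.5% of cells at the upper left.

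The SLC5A7 group held 1 cluster with both and 4 with SLC6A9 only. In cluster 7, SLC6A9 was in 18.6% and 23.8% of cells and SLC6A5 in 25.7% and 17.5%. In its 4 clusters with SLC6A9 only, SLC6A9 was alike in the libraries (14.0% to 25%), whereas SLC6A5 was at 14.7% to 20% in replicate 1 and 1.504% to 7.46% in replicate 2. GAD1 differed between the libraries in the same 4 clusters in the opposite direction, at 24.0% to 31.2% in replicate 1 and 53.8% to 67.8% in replicate 2. These clusters would count as holding both transporters in replicate 1 alone. In the SLC6A9-only clusters of the SLC32A1 group, SLC6A5 was at 1.06% to 3.54% in replicate 1 and 0.901% to 2.50% in replicate 2. Shares this low leave little room for a library difference. In the 10 clusters of that group with both transporters, the median share of SLC6A5 was 60.9% in replicate 1 and 44.8% in replicate 2. The cluster of that group with SLC6A5 only went the other way, at 63.6% and 74.5%. The cause of the library difference in the SLC5A7 group was not tested. The HES1 group had 4 clusters with SLC6A9 only (526 cells), with SLC6A9 in 10% to 20% of cells and SLC6A5 in at most 4.35%. Over these clusters GAD1 reached 60.9% of cells in replicate 1 and 58.4% in replicate 2, beside medians of 22.5% and 18.5%. SLC32A1 reached 13.0% and 10.6%. The part of other cells in these clusters was not tested.

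The cell categories followed the clusters only in part. Cells with both transporters lay in the clusters with both in 95.3% and 94.9% of cases. Cells with SLC6A9 alone were split, 28.8% and 35.1% in the clusters with both and 71.2% and 64.8% in those with SLC6A9 only. Of the cells with SLC6A5 alone, 88.4% and 76.7% lay in the clusters with both. Most cells that show SLC6A5 alone at 2000 UMIs therefore belonged to clusters in which SLC6A9 was detected too.

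Cells with more transcripts of the genes gave the balance between them. Cells of the SLC32A1 group with at least 5 UMIs of SLC6A9 and SLC6A5 together were taken without thinning. In the 10 clusters with both there were 551 and 528 such cells, and 90.7% and 88.8% of them held each gene. SLC6A9 made up a median of 40% and 50% of the UMIs of the pair, and 75.9% and 75.4% of the cells lay between 20% and 80%. Only SLC6A9 was found in 1.45% and 5.11% of these cells, and only SLC6A5 in 7.80% and 6.06%. In the other classes the shares in part restate how the clusters were classed. In the 5 clusters with SLC6A9 only, 85.9% of 234 cells and 90.3% of 267 cells held SLC6A9 without SLC6A5. In cluster 11, 92.9% of 28 cells and 90.7% of 43 cells held SLC6A5 without SLC6A9. The shares of the pair are ratios of captured UMIs, with no correction for transcript length or capture.

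**Figure D4:**
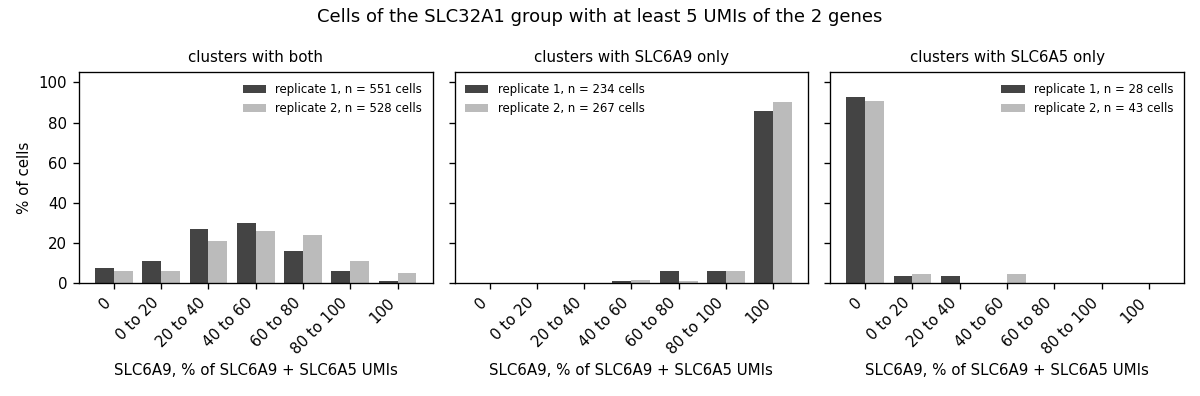
SLC6A9 as a percent of the UMIs of both genes, in cells of the SLC32A1 group with at least 5 such UMIs, by the class of their cluster, with dark bars for replicate 1 and light bars for replicate 2. The clusters with both spread over the middle, with each gene in 90.7% and 88.8% of cells, and the other classes pile up at 100% and at 0%.

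Joint and exclusive detection also differed with the context genes a cell held. Among cells with SLC32A1 but neither GAD1 nor CHAT, 15.4% and 12.7% held both transporters, 27.0% and 28.2% SLC6A9 alone and 23.8% and 20.6% SLC6A5 alone. Among cells with GAD1 but neither of the others, 0.704% and 0.657% held both and 92.3% and 93.8% held neither. GAD1 UMIs were widespread, found in 18.0% to 70.3% of cells in groups other than its own, so its presence in a cell says little by itself. Of cells with SLC32A1 and CHAT but not GAD1, 35.2% of 372 and 32.8% of 311 held SLC6A9 alone. In these cells SLC6A5 alone was found in 7.26% and 6.43%. At a stricter limit, at least 2 UMIs each of SLC32A1 and CHAT and fewer of GAD1 were required. Then 48.4% of 128 cells and 34.5% of 87 cells held SLC6A9 alone, and 2.34% and 2.30% held SLC6A5 alone. Read the other way, the SLC32A1 group's cells with SLC6A9 alone had CHAT in 29.9% and 20.8%, those with SLC6A5 alone in 7.42% and 7.07%, and those with both in 4.38% and 5.71%. Cells with neither transporter had it in 35.8% and 26.3%, the highest shares of the categories. SLC32A1 was detected in 62.9% to 71.3% of the cells of these 3 categories, and GAD1 in 19.7% to 25.9%.

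What the categories differ in was tested over cells of the SLC32A1 group thinned to 2000 UMIs. UMIs were summed per library and category and compared with edgeR's quasi-likelihood test over 10761 genes, without SLC6A9 and SLC6A5, which define the categories. A call needed an adjusted p under 0.05 and a difference of 1.5-fold or more. Between cells with SLC6A5 alone and cells with SLC6A9 alone 956 genes were called, 479 higher and 477 lower, which is 8.88% of those tested. Between cells with both and cells with SLC6A9 alone 825 were called, 414 higher and 411 lower (7.67%). Between cells with both and cells with SLC6A5 alone 61 were called, 19 higher and 42 lower (0.567%). The contrasts share categories. Pooled over the clusters, the categories also differ in cluster. Among cells of the 10 clusters with both, over 8944 genes, the counts were 91 (14 higher, 77 lower), 107 (38 higher, 69 lower) and 7 (6 higher, 1 lower). These cells were summed per library and category over the 10 clusters together, not cluster by cluster. The part of cluster in these counts was not tested.

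CHAT was lower in both categories with SLC6A5, and its level was highest in cells with neither transporter, at 475 and 258 CPM. It stood at 383 and 187 CPM in cells with SLC6A9 alone, at 49.1 and 41.1 CPM in cells with SLC6A5 alone and at 35.9 and 33.0 CPM in cells with both. In the edgeR test it was 6.04-fold lower in cells with SLC6A5 alone than in cells with SLC6A9 alone (log2 −2.60, SE 0.15, adjusted p = 3.54e-19). It was 7.98-fold lower in cells with both (log2 −3.00, SE 0.18, adjusted p = 2.77e-18). It remained lower among cells of the 10 clusters with both, summed together, by log2 −2.06 (adjusted p = 3.69e-19) and −2.72 (adjusted p = 1.40e-23). These clusters differed in CHAT, detected in 1.56% to 31.1% of their cells in replicate 1 and 1% to 26.7% in replicate 2. Of 5 marker genes of starburst amacrine cells, 2 had a named gene, CHAT and SLC5A7, and their summed level moved with CHAT, at 391 and 193 CPM in cells with SLC6A9 alone and 45.3 and 36.0 CPM in cells with both, while SLC5A7 itself was at 3.003 to 10.5 CPM in the categories with a transporter. The summed markers of photoreceptors, horizontal cells, ganglion cells and pigment epithelium were each at most 23.4 CPM in every category. The 4 bipolar markers found of 6 summed to between 554 and 925 CPM over the categories. The 2 Müller glia markers found of 6 summed to 147 and 170 CPM in cells with SLC6A9 alone, 127 and 162 CPM in cells with both and 93.9 and 133 CPM in cells with SLC6A5 alone. The part of these in the differences was not tested.

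The genes named next were those of largest fold. Most of their differences were not called when only cells of the 10 clusters with both were compared. Of 20 genes named between cells with SLC6A5 alone and cells with SLC6A9 alone, 10 could be tested there and 1, CARTPT, was called in the same direction. Of 20 named between cells with both and cells with SLC6A9 alone, 11 could be tested and 2, CARTPT and ANO7, were called. CARTPT, the precursor of the CART neuropeptides, was at 262 and 310 CPM against 57.0 and 101.3 CPM (3.68-fold, log2 1.88, adjusted p = 8.58e-17). It was 4.51-fold higher in cells with both (267 and 438 CPM). Among cells of the 10 clusters with both, its differences were smaller but still called, at log2 0.64 and 0.72. CDH23, a cadherin, was 16.5-fold higher in cells with SLC6A5 alone than in those with SLC6A9 alone (log2 4.04, SE 0.26), at 68.8 and 144.4 CPM against 8.87 and 4.75 CPM. ESRRB, an orphan nuclear receptor, had 52 UMIs in the 981 cells with SLC6A5 alone and 2 in the 1737 cells with SLC6A9 alone. PXDN, a matrix peroxidase, was 3.98-fold higher, and CCKAR (a cholecystokinin receptor), ISM1, FREM1, DNASE1L3, FAM3C and BAIAP3 were 3.54- to 7.21-fold higher.

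Higher in cells with SLC6A9 alone than in those with SLC6A5 alone were PRTG, a receptor of the immunoglobulin superfamily, and MFSD4A, a membrane carrier. PRTG stood at 349 and 319 CPM against 14.2 and 18.2 CPM (19.96-fold, adjusted p = 1.39e-25) and MFSD4A at 265 and 252 CPM against 10.9 and 24.9 CPM (13.8-fold, adjusted p = 2.43e-21). Among cells of the 10 clusters with both, PRTG was not called (log2 −0.53, adjusted p = 0.763). TH, tyrosine hydroxylase of catecholamine synthesis, had 79 UMIs in cells with SLC6A9 alone and 1 in cells with SLC6A5 alone. CRYBA1, a crystallin, had 263 and 3, the Wnt receptor FZD4 42 and 1, ADAMTSL5 69 and 2, DNAH5 36 and 1, and NKD2 43 and 3. PLA2G3, a secreted phospholipase, was 9.55-fold lower in cells with SLC6A5 alone, although the fall was uneven, to 24.0 CPM in replicate 1 and 1.91 CPM in replicate 2. ERCC6L was 9.95-fold lower.

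The next contrast sets cells with both transporters against cells with SLC6A9 alone, and shares the cells with SLC6A9 alone with the last contrast. CNR1, a cannabinoid receptor, was 3.40-fold higher in cells with both (552 and 533 against 161 and 161 CPM, adjusted p = 6.16e-19). CYP26B1.1, a retinoic acid hydroxylase, was 3.85-fold higher, ANO7 3.87-fold, UST 4.15-fold, MEGF6 3.56-fold, TMEM121 3.34-fold, FAM3C 7.36-fold, ISM1 3.37-fold and PXDN 3.22-fold. PRTG was 10.2-fold lower, ERCC6L 9.28-fold lower, and TH had 3 against 79 UMIs. FZD4 and DSEL had 0 UMIs in the 653 cells with both against 42 and 28 in cells with SLC6A9 alone, which makes them at least 5.26-fold and 3.51-fold lower, taking 3 counts over the group as the floor. ADAMTS15 (3 against 123), COL24A1 (2 against 76), HPD (1 against 47), DNAH5 (1 against 36) and NME5 (1 against 29) were called lower too. For HPD, 44 of the 47 UMIs came from replicate 2 and 3 from replicate 1.

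Few named genes separated cells with both from cells with SLC6A5 alone, 7 higher and 9 lower. CHST1, a sulfotransferase, was 2.28-fold higher in cells with both (79.7 and 70.6 against 34.9 and 30.6 CPM, adjusted p = 0.00115). DLC1, ADGRV1, GAB1, NEO1, CHRNA7 (a nicotinic acetylcholine receptor subunit) and CAMKV were 1.54- to 2.04-fold higher. Of the 16 genes named in this contrast 12 could be tested among cells of the 10 clusters with both, and CHST1 and NEO1 were called. ESRRB had 0 UMIs in cells with both against 52, at least 11.5-fold lower. CDH23 was 7.74-fold lower, at 14.1 and 13.5 CPM. ESRRG, a relative of ESRRB, was 2.10-fold lower (150 and 147 against 253 and 369 CPM, adjusted p = 1.95e-07), and CCKAR and SLC35F4 had 1 and 2 UMIs against 25 and 37. DIAPH2, PDE1A and GALNTL6 were 1.66- to 2.52-fold lower.

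**Figure D5:**
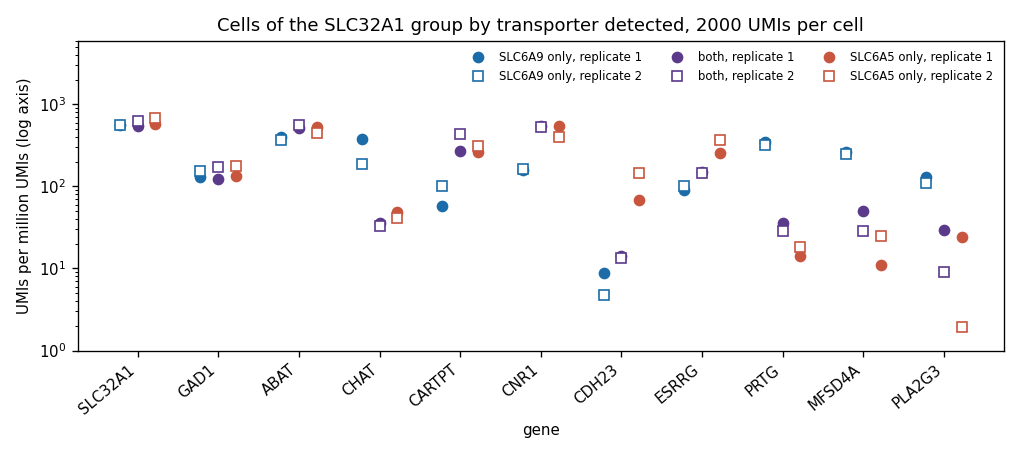
Levels of 11 genes, in CPM on a log axis, in cells of the SLC32A1 group with SLC6A9 only (blue), both transporters (purple) or SLC6A5 only (red), each cell thinned to 2000 UMIs, with replicate 1 filled and replicate 2 open. SLC32A1 and GAD1 lie level across the categories, CHAT, PRTG and MFSD4A are highest with SLC6A9 only, and CARTPT and CNR1 are lowest there.

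No other gene of the inhibitory and glycine lists was called between the categories, which is near what the shares over all genes (8.88%, 7.67% and 0.567%) would give for so few genes. Of the GABA list, 4 of 9 genes had a named feature (GAD1, SLC32A1, ABAT and ALDH5A1), and none was called in any of the 3 contrasts. Their median log2 difference between cells with SLC6A5 alone and cells with SLC6A9 alone was 0.16, against 0.01 over all genes. ABAT, the transaminase that degrades GABA, came closest, at 0.37 (adjusted p = 0.000782) and, for cells with both, 0.52 (adjusted p = 1.32e-05), each under 1.5-fold. GLRB, the beta subunit of the glycine receptor and 1 of 6 receptor genes found, was not called (0.13 and −0.03). Of the glycine metabolism list 4 genes were tested in the categories and none was called. PHGDH, which starts serine synthesis, came closest, at −0.50 in cells with both against cells with SLC6A9 alone (adjusted p = 0.0115).

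Between groups of cells the pathway genes were uneven. SLC32A1 and GAD1 each name a group, so the call of each for its own group follows from how the groups were made. Among the other GABA genes, the SLC32A1 group had ABAT (log2 1.97) and ALDH5A1 (2.07) called higher and GAD1 (−2.03) called lower. Of all genes, 9.56% were higher and 6.19% lower there, with a median log2 difference of 0.07. The GAD1 group had ABAT (log2 1.24) and ALDH5A1 (1.96) called higher, while SLC32A1 (−0.43) was not called. There 11.2% of all genes were higher, with a median of 0.06. ABAT was 3.93-fold higher in the SLC32A1 group (adjusted p = 4.26e-08) and 2.36-fold higher in the GAD1 group. ALDH5A1, which completes GABA breakdown, was called in the SLC32A1 group too (adjusted p = 0.0250), at 11.1 and 9.75 CPM against 8.66 to 10.2 CPM in the GAD1 group and 0 UMIs in the RCVRN group. It was also called higher in the GAD1 and SLC5A7 groups. Its mean level was 4.97 CPM in the BEGAIN group, 5.25 CPM in the CHTF18 group and 5.69 CPM in the HES1 group. The RCVRN group, with its 0 UMIs, enters each contrast with the same weight as the other groups. Its part in these calls of ALDH5A1 was not tested. GAD1 was 4.09-fold lower in the SLC32A1 group (adjusted p = 9.99e-05). GLRB was called in the GAD1 group (2.29-fold higher) and not in the SLC32A1 group (log2 0.85). The glycine metabolism genes were called higher in the HES1 group. There 4 of the 5 tested were higher, where 18.6% of all genes were. Their median log2 difference was 1.38, against 0.02 over all genes. SHMT1 and SHMT2 interconvert serine and glycine. SHMT1 stood at 63.0 and 61.1 CPM there and at no more than 1.47 CPM in any other group, and SHMT2 was higher by log2 1.38, PSPH, which makes serine, by 2.47, and PHGDH by 1.22. DLD was not called. PSPH was lower in the SLC32A1 group (2.41-fold, adjusted p = 3.79e-05). SLC25A38, a mitochondrial glycine carrier, was 2.25-fold higher in the HES1 group than the mean of the other groups. Its mean level was 23.6 CPM there and 27.5 CPM in the BEGAIN group. PHGDH was also high in the BEGAIN group, at a mean of 231 CPM beside 264 CPM in the HES1 group. No other member of the SLC6 family was named by the tables used here, of which the study's own gene names were held only in part, so GABA transporters were not analysed here.

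Over the 75 clusters, the level of SLC32A1 followed each transporter most closely among 5082 named genes. Pearson's r of log2(CPM + 10) with SLC6A9 was 0.83 for SLC32A1, 0.66 for CACNA2D3.1, 0.66 for HUWE1, 0.66 for FBXW7 and 0.65 for PPHLN1. With SLC6A5 it was 0.79 for SLC32A1, 0.73 for CARTPT, 0.73 for CARM1, 0.70 for ALDH1L2 and 0.65 for SLC6A9. SLC6A5 ranked sixth for SLC6A9, at the same 0.65, and that value was 0.65 in replicate 1 alone and 0.63 in replicate 2 alone. GAD1 went the other way, at −0.50 with SLC6A9 and −0.30 with SLC6A5, and CHAT was at 0.16 and 0.07. These correlations are descriptions over clusters that share their libraries, and SLC32A1 also defines a group.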

How the data were processed

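Single-cell RNA-seq of adult lamprey retina was analysed from 2 libraries. The authors deposited UMI counts per gene and barcode, whole numbers without normalization, made with Cell Ranger (7.0.1 in the file headers, 6.0.1 in the submitters' processing notes) on the NCBI+TruSeq reference. The labels and the study's methods differ on the kit version and on whether cells were sorted. The study's limits on UMIs and genes per barcode removed 30 and 22 barcodes.

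SLC6A9 and SLC6A5, the gene lists, the group genes and their thresholds were chosen with earlier results of these data known. Of 24979 genes, 1998 were named from the study's supplement, 5432 by the deposited symbol and 559 through RefSeq (UKy_Petmar_22M1.pri1.0, names only); 16990 have no name here. Pearson residuals (theta 100) of 3000 variable genes gave 50 components, aligned between libraries by a Harmony-type correction, and a graph over 20 neighbours was partitioned at resolution 0.8 (Louvain, igraph 0.11.9, Python 3.11.15), giving 52 clusters of all cells and 95 within groups. The study's limits per cell class were applied, and for these limits alone each group was given a class. The RCVRN group took those of photoreceptors, CHTF18 of bipolar cells, HES1 of Müller glia and BEGAIN of horizontal cells. The SLC5A7 and SLC32A1 groups took those of amacrine cells, and the GAD1 group those of ganglion cells. The 1232 cells outside them joined no group, 786 of them with at least 2000 UMIs. Doublets marked by Scrublet (scanpy 1.11.5) were kept.

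Counts summed per library and group or category were tested with edgeR 4.0.16 in R 4.3.3 (TMM, filterByExpr, library in the model, quasi-likelihood F test, Benjamini-Hochberg). Both libraries hold every sum compared, so the library is a block. On simulated counts, 92.1% of 191 genes changed 4-fold were recovered in the SLC32A1 contrast over 14413 genes, and 92.3% of 196 in the contrast of cells with SLC6A5 alone and SLC6A9 alone over 10463 genes. False calls numbered 1 and 3. Only 4-fold changes were planted, so recovery near the 2-fold and 1.5-fold limits was not tested. Named genes were, per contrast of categories, up to 10 of largest fold in each direction among named genes called with 1 sign in each library, and the 5 closest by r to each transporter. A gene that this rule selects is not reported here. With 1 group of 2 libraries no test between libraries was made. Alternatives were other depths, detection limits, cell filters, doublet removal, resolutions, DESeq2 1.42.0, no low-count filter and each library alone.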

Additional observations from a re-analysis of the deposited data

Results flagged for a closer look

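With each group taken as 1 population, the log2 odds ratio of co-detection was −0.35 in the SLC32A1 group. The ratio had the opposite sign in each library of the SLC5A7 group (mean 1.21), the GAD1 group (1.90) and the CHTF18 group (4.76). The differences were not tested. These positive values rest on 17 and 11 cells with both transporters in the SLC5A7 group and 11 and 26 in the GAD1 group. In the CHTF18 group they rest on 1 and 2. At 1000 UMIs per cell, replicate 2 of the SLC5A7 group gave −0.79, with 1 cell holding both. Combined within clusters, a value chosen after the data were seen, the ratio was positive in each group computed. The SLC32A1 group then gave 0.11 and 0.24, the SLC5A7 group 0.34 and 1.01, and the GAD1 group 0.94 and 1.99.

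Outside the comparisons, 786 cells beyond the limits on genes and UMIs of their class held both transporters in 5.34% of cases (42 cells). A count of 0 would allow 0.382%, which any count above 3 passes, so this says only that such cells occur. Their median depth before thinning was 20177 UMIs, and Scrublet marked 23.2% of them. The part of doublets in this share was not tested. Among the 1974 cells of at least 2000 UMIs in clusters of no group, 8 held both (0.405%, where a count of 0 would allow 0.152%). They were 6 of 571 in replicate 1 and 2 of 1403 in replicate 2.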

How the results depend on the processing

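Of 136 alternative values, 98 were counted as unchanged, 37 moved and 1 reversed. Apart from counts of genes and clusters, unchanged means the same direction and side of the threshold, or a move within the replicate spread. Counts of genes and clusters could differ and still be counted as unchanged. For SLC6A5 only against SLC6A9 only, 1245 genes at 4000 UMIs and 672 with at least 2 UMIs were so counted, against 956. So were 16 clusters with both transporters at a 5% limit, against 11. The 2 transporters stayed called in the SLC32A1 group under all 8 alternatives with a test (log2 3.96 to 4.29 for SLC6A9, 3.75 to 4.12 for SLC6A5), and each library alone gave 3.89 to 4.25 and 3.57 to 4.04. Shares depend on depth. At 1000 UMIs both, SLC6A9 only and SLC6A5 only stood at 1.41%, 7.42% and 4.86%, with a log2 odds ratio of −0.12 in the SLC32A1 group, 6 clusters with SLC6A9 only, and 509, 289 and 9 genes called (SLC6A5 only against SLC6A9 only, both against SLC6A9 only, both against SLC6A5 only). At 4000 UMIs both and SLC6A9 only were 7.20% and 14.5%, the odds ratios 2.30 over all cells and −0.51 in the SLC32A1 group, and the last 2 counts of genes 1265 and 111. Without thinning the shares were 8.48% and 13.7%, the odds ratios 2.64 and −0.085, the clusters with both 19, and the genes called 1645, 1637 and 347. With at least 2 UMIs the shares were 0.542%, 4.72% and 3.37%, and the last 2 counts of genes 340 and 12. DESeq2 called 570, 455 and 21 genes. The clusters with both alone gave 91, 107 and 7 genes, an alternative chosen after seeing the data, as was the odds ratio within clusters, which reversed to 0.17. At resolution 2, 18 clusters held both and 22 SLC6A9 only, and at a 20% limit 7 held SLC6A9 only. Each library alone gave 2.97% to 4.34% both, 10.4% to 11.96% SLC6A9 only, 5.63% to 8.60% SLC6A5 only, odds ratios of 1.66 to 2.04 and −0.39 to −0.30, and 11 to 15, 10 to 16 and 3 to 5 clusters. The count of genes differing between categories cannot be tested with 1 library. The causes of these moves were not tested. Fewer cells enter at 4000 UMIs, and fewer cells and genes among the clusters with both, and the part of this was not tested either. No paired analysis was possible because both libraries belong to 1 group of samples, within which the tests of cell groups and categories already hold the library as a block.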
